A study of Homo sapiens with 34 samples.

Results

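The Period genes PER1, PER2 and PER3 were described in U2OS, an osteosarcoma line of human origin, here a Bmal1:luc stable line with luciferase driven by the Bmal1 promoter. They were the loci whose gene name in the deposited annotation was PER1, PER2 or PER3, 3 of 28690 loci in all, together with the BMAL1/CLOCK binding sites named after them. RNA-seq covered 12 time points, labelled CT00 to CT44 in steps of 4 hr, in cells given 5 mM 6AN or the solvent DMSO as control, with 1 library per condition and time point. 6AN (6-aminonicotinamide) is an inhibitor of the pentose phosphate pathway. ChIP-seq of BMAL1, CLOCK, H3K4me3, H3K9ac and input was done after 24 hr of incubation with 6AN or DMSO, with 1 library per antibody and condition. All groups share the reporter line, and the study's methods describe synchronisation with dexamethasone, a glucocorticoid, before sampling.

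In the circadian clock the transcription factors BMAL1 (gene ARNTL) and CLOCK bind E-box elements and drive the Period and Cryptochrome genes, whose proteins return to the nucleus and repress BMAL1/CLOCK. PER1 and PER2 are core repressors that are phosphorylated by casein kinase 1 and degraded through β-TrCP ligases. PER3 has a smaller part in the repression. PER1 and PER2 are also known as acute targets of glucocorticoid and cAMP/CREB signalling, and D-box elements, bound by DBP, TEF and HLF, are a further known input to Period genes.

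Because the values concern BMAL1/CLOCK binding at these genes, the bases before each gene start are shown, from RefSeq GRCh38.p14 and written 5′ to 3′ on the gene's strand. Capitals mark matches on either strand to the E-box CACGTG, the E′-box CACGTT, the cAMP response element TGACGTCA and the D-box words TTATGTAA, TTATGCAA and TTACGTAA. All 3 genes were found in the RefSeq promoter table, PER3 with 2 gene starts. The stretches are chr17:8152405-8152654 on the minus strand for PER1, chr2:238288606-238288860 on the minus strand for PER2 and chr1:7784041-7784290 on the plus strand for the upstream start of PER3.
PER1: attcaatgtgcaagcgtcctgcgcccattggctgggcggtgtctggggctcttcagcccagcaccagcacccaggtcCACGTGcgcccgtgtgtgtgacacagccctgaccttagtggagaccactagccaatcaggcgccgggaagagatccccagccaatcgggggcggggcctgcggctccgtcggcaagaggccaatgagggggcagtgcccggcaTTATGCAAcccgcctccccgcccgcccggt
PER2: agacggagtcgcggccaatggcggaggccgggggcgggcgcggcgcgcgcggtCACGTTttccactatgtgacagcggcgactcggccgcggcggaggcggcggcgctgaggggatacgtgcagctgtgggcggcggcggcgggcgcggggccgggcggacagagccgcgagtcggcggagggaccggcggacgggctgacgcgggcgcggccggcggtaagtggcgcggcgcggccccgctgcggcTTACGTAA
PER3: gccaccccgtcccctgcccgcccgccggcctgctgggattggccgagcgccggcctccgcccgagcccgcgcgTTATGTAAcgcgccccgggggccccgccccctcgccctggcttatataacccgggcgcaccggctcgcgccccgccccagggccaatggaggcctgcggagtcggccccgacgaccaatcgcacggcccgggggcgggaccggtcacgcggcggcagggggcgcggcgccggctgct

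Positions are counted from the gene start as base 0. PER1 held a canonical E-box at -173 to -168 and PER2 an E′-box at -197 to -192, while neither word was found in the PER3 window. Each gene held 1 D-box word, and each was a different word. The D-box word lay at -30 to -23 in PER1, across the start in PER2 and at -177 to -170 in PER3. Among 35116 RefSeq promoter windows of 300 bases, 7.26% held the E-box and 5.34% the E′-box. The D-box words were rarer, in 0.886% for TTATGTAA, 0.846% for TTATGCAA and 0.125% for TTACGTAA, and 1.84% of windows held at least 1 of them. No match to the cAMP response element was found in the Period gene windows, against 1.85% of all windows. These are matches of letters and not measured sites. The window at the downstream PER3 start held none of the words.

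**Figure D1:**
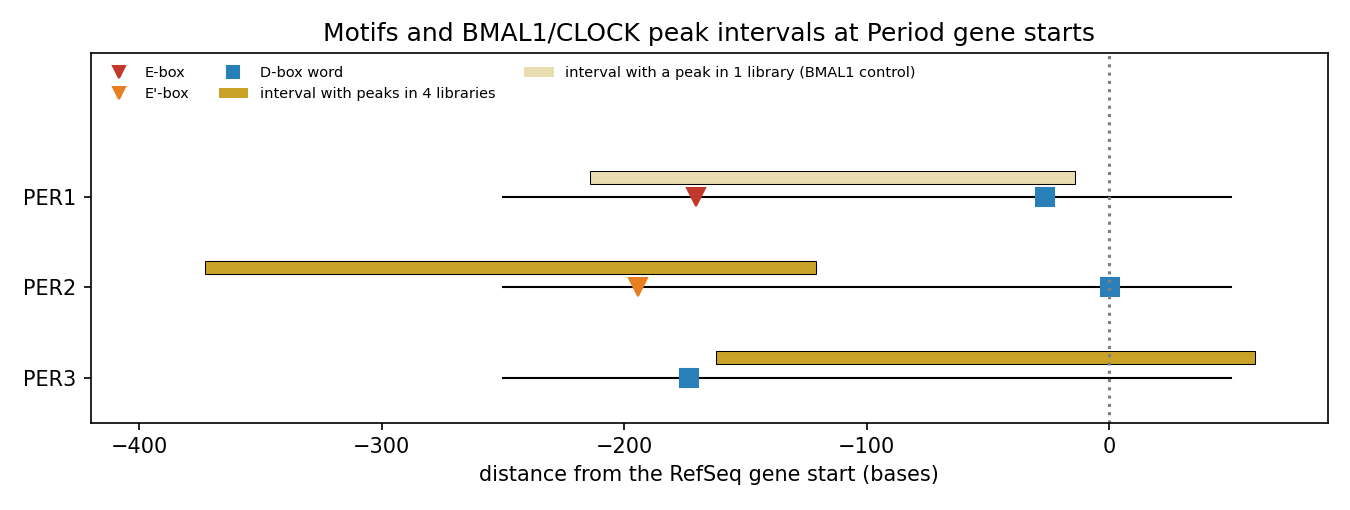
Map of the Period gene starts, with distance in bases from the RefSeq start on the horizontal axis. Triangles mark the E-box and E′-box words, squares the D-box words, dark bars intervals with peaks in all 4 BMAL1 and CLOCK libraries and the pale bar the interval with a peak in the BMAL1 control library alone. The E′-box of PER2 lies inside a 4-library interval and the E-box of PER1 inside the 1-library interval, while the D-box word of PER3 lies just outside its interval.

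BMAL1 and CLOCK peaks were present at all 3 genes under both conditions. The merged peak list held 4 intervals within 10000 bp of a Period locus, and 3 of them, 1 per gene, had a peak in each of the 4 BMAL1 and CLOCK libraries. Of all 4001 merged intervals, 3.0% had this. The Period gene sites were taken from the lists of shared sites of both conditions, which already requires these peaks. The share is thus given for scale and is not a test. The PER2 interval (chr2:238288731-238288983, hg38) covered the E′-box, and the PER3 interval (chr1:7784129-7784351) covered the upstream gene start. The PER1 interval (chr17:8156394-8156604) was intergenic, and its site was listed at -4062 bp from the PER1 start. A further interval over the PER1 promoter itself (chr17:8152418-8152618), which covers both the E-box and the D-box word of the PER1 sequence above, had a peak in the BMAL1 control library only.

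CLOCK signal at the Period gene sites was higher in the 6AN library than in the control library, by about the factor seen over the other shared sites, while the counting intervals of the BMAL1 changes all held 1. Signal is given as tags in a 1000 bp window scaled to 10000000 tags, with the exact Poisson 95% interval of the tags, which covers counting error only. With 1 library per antibody and condition there was no test. CLOCK at the PER1 site was 311 in control (260 to 370) and 700 in 6AN (625 to 781). At the PER2 site it was 351 (295 to 413) and 626 (556 to 703). At the PER3 site it was 341 (286 to 402) and 674 (600 to 753). In control the 3 sites thus lay within each other's intervals, and in 6AN all 3 stood above every control interval.

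The CLOCK change was 2.25-fold at PER1 (95% counting interval 1.82 to 2.78), 1.98-fold at PER3 (1.61 to 2.43) and 1.79-fold at PER2 (1.46 to 2.20), so all 3 sites passed the 1.5-fold mark. This mark was passed by 83.1% of the 439 shared sites of the 6AN list, whose median change was 2.15-fold, so the count is close to the background. The PER1, PER3 and PER2 changes lay at percentiles 54.4, 41.0 and 31.7 of that list. In the control list of 147 shared sites, 103 passed the mark and the median CLOCK change was 1.81-fold. There the same changes lay at percentiles 74.1, 62.6 and 49.7. The Period gene sites ranked 5 (PER1), 6 (PER3) and 8 (PER2) among the 439 sites by CLOCK signal in 6AN, and 8, 6 and 5 in control. They were thus among the strongest CLOCK sites with either treatment, and PER1 and PER2 exchanged places.

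BMAL1 signal at the PER1 site was 168 in control and 153 in 6AN, at the PER2 site 148 and 156, and at the PER3 site 233 and 192. The counting intervals of the fold change reached from 0.706 to 1.18 at PER1, from 0.810 to 1.38 at PER2 and from 0.657 to 1.03 at PER3. No Period gene site passed a 1.5-fold increase, against 41.5% of all shared sites, whose median BMAL1 change was 1.38-fold. The PER3 change lay at percentile 4.1 of all BMAL1 changes, that of PER1 at 10.7 and that of PER2 at 19.6. These shares are of the list of sites shared in 6AN. Among the 147 shared sites of the control list, 20 passed the mark and the median BMAL1 change was 1.16-fold. There the PER3, PER1 and PER2 changes lay at percentiles 13.6, 21.8 and 34.7. At other clock gene sites of the 6AN list, BMAL1 changed from 0.732-fold, at a weak TEF site (26.8 in control), to 1.87-fold, at 1 of the NR1D1 sites. The sites ranked 1 and 2 by CLOCK signal in 6AN, of TEF and NR1D2, changed by 1.09-fold and 0.885-fold for BMAL1. Those ranked 4 and 7, of NR1D1 and DBP, changed by 1.33-fold and 1.43-fold. Input at the sites was 5.41 to 8.11 in control and 6.73 to 9.33 in 6AN. The input change was largest at PER3, 1.51-fold with a counting interval of 0.609 to 3.46. With it subtracted the CLOCK change at PER3 was 0.45 on the log2 scale in place of 0.98, below the 1.5-fold mark.

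Tags of the active promoter marks H3K4me3 and H3K9ac were counted at all 3 sites, with no peak call for these marks. The median shared site of the 6AN list had H3K4me3 of 140 in control and 136 in 6AN. Its H3K9ac was 74.5 and 77.7. The PER1 site, which is intergenic, lay below these medians for both marks. H3K4me3 was 76.5 in control and 101 in 6AN at PER1, 208 and 273 at PER2, and 173 and 145 at PER3. None was higher by 1.5-fold, against 12.3% of shared sites with a 1.5-fold increase, and the intervals of all 3 fold changes held 1. H3K9ac was 63.9 and 68.1 at PER1 and 74.5 and 71.3 at PER3. At PER2 H3K9ac was 202 in control (135 to 291) and 123 in 6AN (93.7 to 160), a 0.610-fold change with an interval of 0.383 to 0.992. In the slightly shifted window of the control list it was 0.666-fold with an interval of 0.417 to 1.09, which holds 1. Of all shared sites 8.2% were lower by 1.5-fold or more. The control H3K9ac library was the shallowest, with 1409550.5 tags in all. It had 28.5 tags at the PER2 site, 9 at the PER1 site and 10.5 at the PER3 site.

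**Figure D2:**
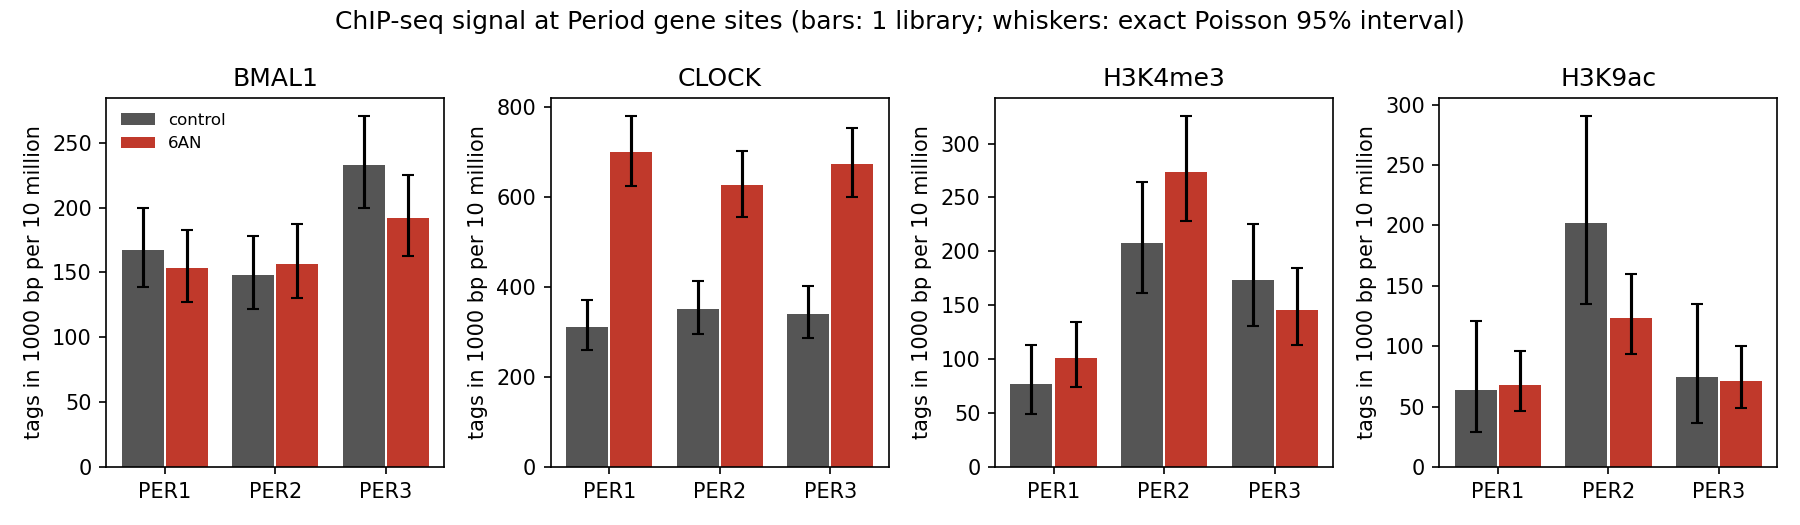
ChIP-seq signal at the Period gene sites, in tags per 1000 bp window scaled to 10000000 tags, for BMAL1, CLOCK, H3K4me3 and H3K9ac. Bars are single libraries and whiskers exact Poisson 95% intervals. CLOCK is higher in 6AN at all 3 sites, from 311 to 351 in control and from 626 to 700 in 6AN, while the BMAL1 intervals overlap.

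Transcript levels were read next, as FPKM (fragments per kilobase of transcript and per unit of library size), which is a level per length and so can be set between genes. The control and 6AN tables were scaled separately, so levels across conditions are set side by side with no test. By mean level PER1 was the highest Period transcript and PER2 the lowest in both conditions. From CT00 to CT44 in control, PER1 was at 19.9, 15.3, 13.8, 12.1, 15.99, 15.98, 13.7, 13.6, 14.9, 10.8, 15.6 and 22.3 FPKM. With 6AN it was at 27.6, 42.7, 46.05, 31.4, 25.2, 23.01, 18.2, 26.6, 42.1, 31.5, 29.5 and 33.1 FPKM. PER1 was thus higher in 6AN at every time label, least at CT24 and most at CT08, and 11 of 12 libraries with 6AN stood above the highest control library. The 6AN course shows a pair of maxima, at CT08 and CT32.

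PER2 in control was at 3.09, 3.52, 3.19, 1.48, 2.86, 2.64, 2.45, 3.01, 3.15, 1.89, 2.66 and 3.45 FPKM. With 6AN PER2 was at 3.15, 4.56, 7.15, 6.03, 3.27, 3.20, 2.98, 2.83, 4.73, 4.98, 4.42 and 3.27 FPKM. The FPKM values lie furthest apart at CT12 and CT08, and the 6AN to control ratio is highest at CT12 and CT36, where control has its low points. PER3 in control was at 13.0, 13.2, 9.71, 6.96, 8.88, 12.8, 16.2, 13.9, 11.6, 9.07, 11.1 and 14.7 FPKM. With 6AN PER3 was at 7.004, 11.4, 19.5, 17.6, 12.2, 10.5, 7.85, 9.09, 16.9, 17.9, 15.03 and 12.3 FPKM. The PER3 series cross 4 times, with control above 6AN around CT00 and CT24 and 6AN above control around CT12 and CT36.

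**Figure D3:**
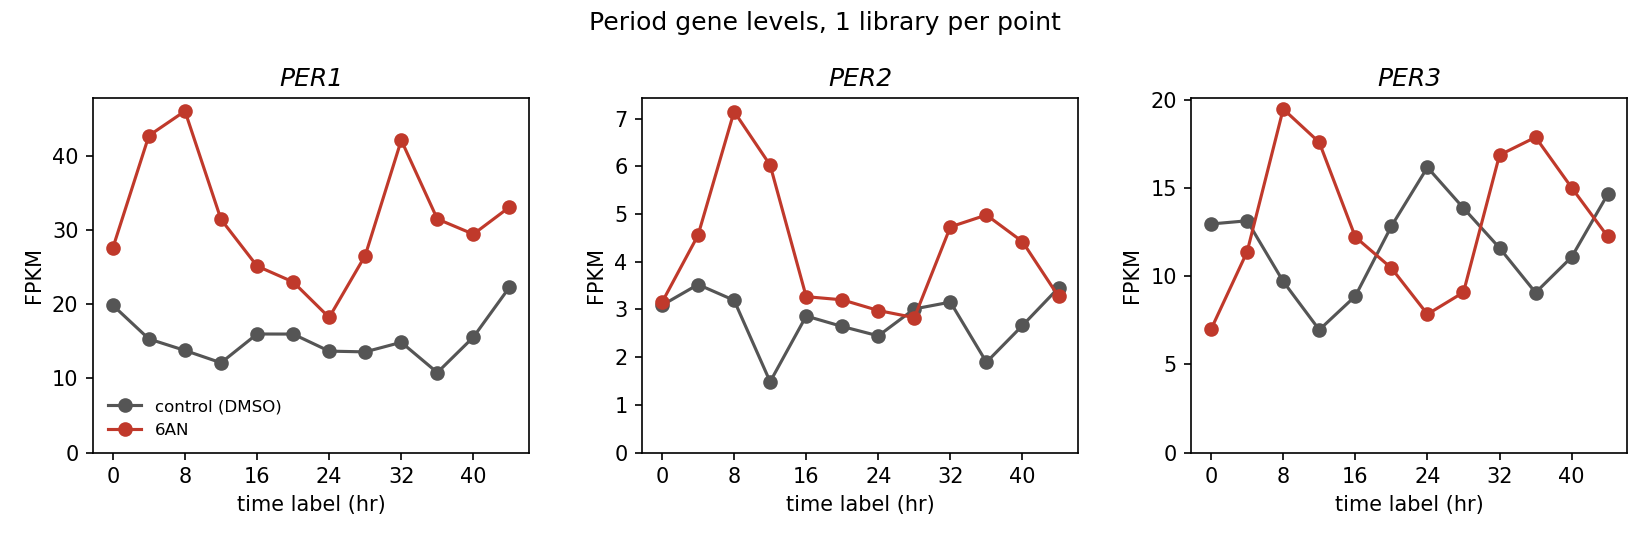
FPKM of PER1, PER2 and PER3 against the time label in hr, 1 library per point, control (DMSO) in grey and 6AN in red. The PER1 series do not cross at any time label, and PER3 shows opposite courses, with control at 16.2 FPKM and 6AN at 7.85 FPKM at CT24.

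The range of each gene over the day was wider with 6AN. The highest over the lowest library was 2.07-fold for PER1 in control and 2.53-fold in 6AN, 2.37-fold and 2.53-fold for PER2, and 2.32-fold and 2.78-fold for PER3. The mean level was 15.3 ± 3.15 FPKM (SD, n = 12 time points) in control and 31.4 ± 8.45 in 6AN for PER1, 2.79 ± 0.609 and 4.21 ± 1.36 for PER2, and 11.8 ± 2.70 and 13.1 ± 4.20 for PER3. Within its own library PER1 stood at a median percentile of 62.1 among the 14678 loci tested in control and of 79.3 in 6AN. PER2 stood at percentiles 23.3 and 29.9 and PER3 at 55.8 and 57.3. In the order of levels PER1 and PER3 overlapped in control, where PER3 was the higher at CT24 and CT28, and did not exchange places in any 6AN library.

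On the log2(FPKM + 1) scale, which understates changes of low transcripts such as PER2, the 6AN to control ratio averaged 0.97 ± 0.47 for PER1, 0.44 ± 0.49 for PER2 and 0.12 ± 0.72 for PER3 (SD over 12 time points). PER1 was higher in 6AN at 12 of 12 time points, which was so for 12.6% of all loci tested, PER2 at 10 and PER3 at 6. The PER1 ratio lay at percentile 98.4 of all loci. The median locus lay at -0.04. The ratio moved with the time label for each gene. It ran from 0.39 at CT24 to 1.67 at CT08 for PER1, from -0.07 at CT28 to 1.5 at CT12 for PER2, and from -0.96 at CT24 to 1.22 at CT12 for PER3. In these bulk samples a change in the number of transcribing cells and in RNA per cell cannot be told apart.

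The Period genes did not change in proportion to each other. The ratio of 2 Period genes within a library depends less on the scaling that differs between the tables than a level does. It was taken on FPKM + 1 and compared between conditions at each time label with a two-sided exact sign-flip permutation test, adjusted over the 3 pairs. PER1 over PER2 was 2.10 ± 0.21 in control and 2.63 ± 0.27 in 6AN (log2, SD, n = 12), higher in 6AN at 11 of 12 time points (exact p = 0.00146, adjusted p = 0.0022). PER1 over PER3 was 0.36 ± 0.30 in control and 1.22 ± 0.35 in 6AN, higher at 12 of 12 (exact p = 0.000488, the smallest that 12 pairs can give, adjusted p = 0.00146). PER2 over PER3 was -1.74 ± 0.26 and -1.41 ± 0.23, higher at 10 of 12 (exact p = 0.0112, adjusted p = 0.0112). PER1 thus rose against both others, by 1.44-fold and 1.81-fold, and PER2 against PER3 by 1.25-fold. With no pseudocount, where the scaling cancels, the same differences were 1.36-fold, 1.86-fold and 1.37-fold, with adjusted exact p of 0.0117, 0.00146 and 0.00513. These tests take the time points as independent, although neighbouring libraries are 4 hr apart in one course. The share of other pairs of loci that would pass was not computed. Of all loci tested, 12.6% were higher and 19.8% lower in 6AN at all time points, so unequal change is not particular to the Period genes.

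**Figure D4:**
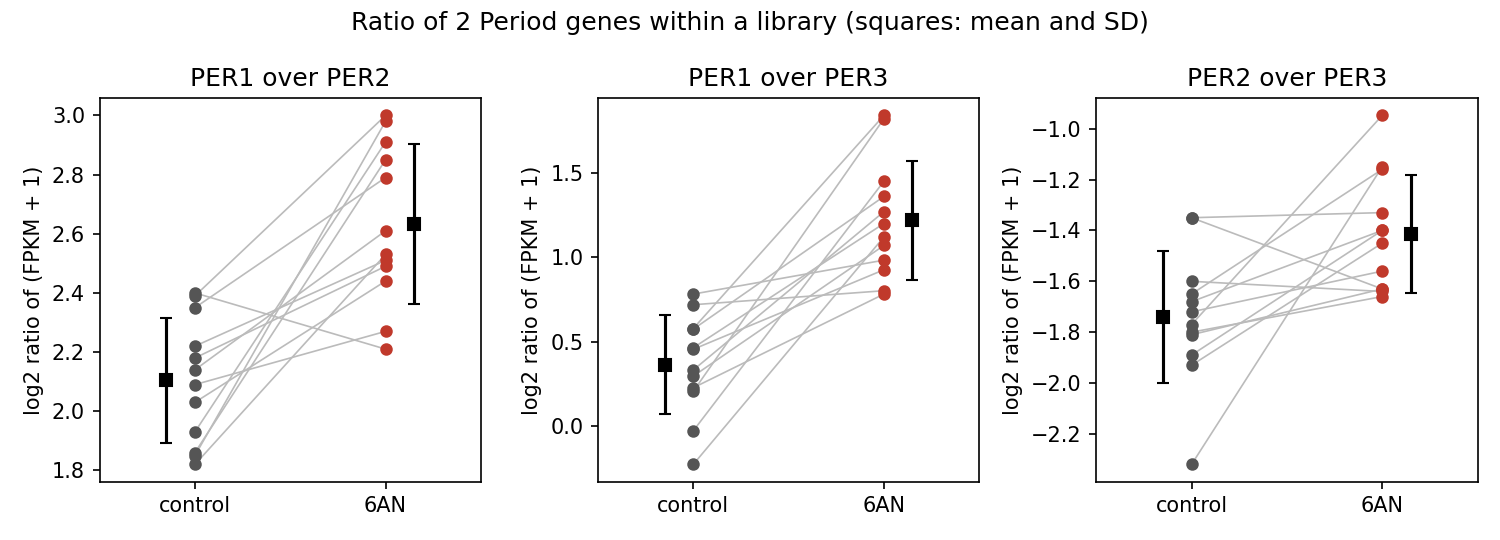
log2 ratio of 2 Period genes within each library, with control and 6AN libraries of the same time label joined by grey lines and squares with bars giving the mean and SD of 12 libraries. PER1 over PER3 is higher in 6AN for all 12 time labels.

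A cosine of 24 hr was then fitted to each gene within its own table with limma, with Benjamini-Hochberg adjustment over the 14678 loci with a mean of at least 0.7 FPKM. The p-values measure the spread of single libraries around the fitted curve. PER3 had the clearest 24 hr course of the 3 genes in both conditions. Its cosine took up 79.3% of the variance in control and 84.3% in 6AN, with amplitudes of 0.39 ± 0.06 and 0.56 ± 0.08 (log2, SE), and by unadjusted p it ranked 9 in control and 4 in 6AN of all loci. PER2 took up 31.7% in control and 67.9% in 6AN, with amplitudes of 0.19 ± 0.09 and 0.39 ± 0.09. PER1 took up 48.8% and 46.7%, with amplitudes of 0.25 ± 0.08 and 0.35 ± 0.12. Each amplitude was larger in 6AN, though the difference between the tables was not tested.

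No locus passed an adjusted p of 0.05 in either table, 0% of those tested in both, so no Period gene was called. By limma's adjusted p, PER3 stood at 0.586 in control and 0.313 in 6AN, and the others between 0.669 and 1. At an unadjusted p under 0.05 there were 751 loci in control, or 5.12%, and 694 in 6AN, or 4.73%. PER1 (limma p = 0.0344) and PER3 (p = 0.000399) were among them in control and all 3 were in 6AN, with p = 0.0395 for PER1, p = 0.00354 for PER2 and p = 8.53e-05 for PER3. For PER1 in 6AN this was not kept in a permutation test of the time labels (p = 0.0627) or with a linear trend (limma p = 0.0574). In control PER1 kept it in both, with permutation p = 0.0424 and limma p = 0.0471. On leaving out 1 time point, limma p for PER1 in 6AN ran from 0.00821 to 0.124, the highest without CT08. In control it ran from 0.00645 to 0.0901, the highest without CT44. With a linear trend over time added to the model, PER3 was the only locus called in control, with an amplitude of 0.44 and an adjusted p of 0.0147 by limma, and in 6AN none was called.

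The fitted peaks fell around time 24 in control and between 8.54 and 11.5 hr in 6AN. In control PER1 peaked at 21.7 ± 1.2 hr (SE), PER3 at 0.19 ± 0.63 hr and PER2 at 1.33 ± 1.8 hr. In 6AN the order was PER1 at 8.54 ± 1.3 hr, PER2 at 10.2 ± 0.85 hr and PER3 at 11.5 ± 0.53 hr. These hours and their SEs hold for a period set at 24 hr. PER1 led PER3 by 2.51 ± 1.4 hr in the control fit, and with 6AN this lead came to 2.96 ± 1.4 hr. PER2 lay 1.14 ± 1.9 hr after PER3 in control and 1.33 ± 1.0 hr before it in 6AN. The SE of each gap combines the SEs of the 2 genes as if independent, although both were read in the same libraries. Whether the gap of PER2 to PER3 differed between the conditions was not tested.

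**Figure D5:**
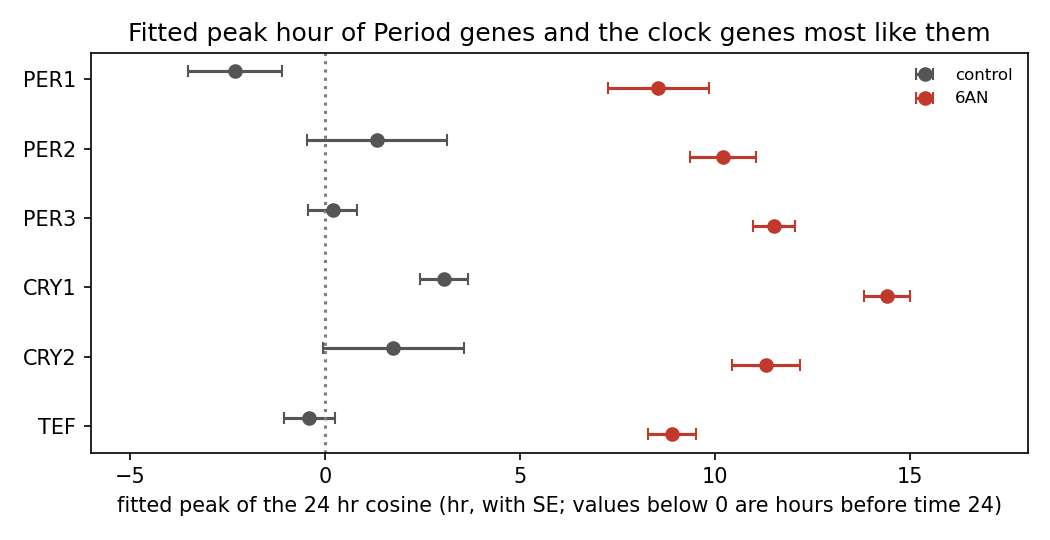
Fitted peak hour of the 24 hr cosine with its SE for the Period genes and for CRY1, CRY2 and TEF, control in grey and 6AN in red, with hours before time 24 drawn below 0. In control PER1 lies at 21.7 hr and PER3 at 0.19 hr, and all 6 genes lie between 8.54 and 14.4 hr in 6AN.

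The highs and lows can also be read without a fit. In control all 3 genes had their lowest level of each day at CT12 and at CT36, 24 hr apart. In 6AN the highest levels of the first and second day were 24 hr apart for PER1, at CT08 and CT32, and 28 hr apart for PER2 and PER3, at CT08 and CT36. The other extremes were spaced less evenly. Control maxima were 44 hr apart for PER1, 40 hr for PER2 and 20 hr for PER3, and 6AN minima 4, 28 and 24 hr apart in the same order, so no spacing can be set between conditions from these readings. A cosine of 28 hr, tried after the data were seen, took up less variance than 24 hr in control for all 3 genes (20.01% for PER1, 13.2% for PER2 and 57.9% for PER3). In 6AN it took up more for PER1 (67.9%) and PER2 (77.2%) and slightly less for PER3 (83.1%). Its 6AN peaks were earlier than those of the 24 hr fit and in the same order. They lay at 7.38 ± 0.85 hr (SE) for PER1, 8.64 ± 0.70 hr for PER2 and 9.87 ± 0.59 hr for PER3.

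Drift between the first and second day was compared with the clock hour as a block, CT24 to CT44 against CT00 to CT20. In control PER3 rose by 0.24 ± 0.04 (log2, SE) with an adjusted p of 0.0479 by limma, from a mean of 10.8 to 12.8 FPKM, among 1.48% of loci that rose and 1.86% that fell. The call sits at the threshold and was lost on leaving out any of the 6 clock hours, with adjusted p from 0.0625 to 0.136. PER1 changed by -0.05 ± 0.12 and PER2 by 0.00 ± 0.09 in control, neither past the threshold. In 6AN no Period gene was called, against 16.1% of loci, with differences of -0.11 ± 0.16 for PER1, -0.16 ± 0.13 for PER2 and 0.03 ± 0.09 for PER3.

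Clock genes made up 2 of the 5 loci most like PER1 in their course, and 4 of 5 for PER2 and for PER3. Likeness was the mean of Pearson's r in control and in 6AN, each over 12 time points of 1 table. TEF, a D-box activator, led for PER1 (r = 0.72 in control and 0.91 in 6AN) and for PER3 (0.89 and 0.74). CRY2, the Cryptochrome partner of the Period proteins, led for PER2 (0.71 and 0.87). PER1 was followed by ADIRF,AGAP11, USP36, CAMKK1 (a calcium-dependent kinase) and PER2. PER2 was followed by PER3, TEF, PER1 and the antisense transcript ENTPD3-AS1. PER3 was followed by PER2, ADIRF,AGAP11, CRY1 and CRY2. Between the Period genes r was 0.68 and 0.73 for PER1 with PER2, 0.51 and 0.65 for PER1 with PER3, and 0.63 and 0.86 for PER2 with PER3. ARNTL ran opposite to each, with r of -0.91 and -0.88 for PER3, -0.61 and -0.89 for PER2 and -0.68 and -0.70 for PER1. The points of a table share their libraries and their place in the cycle.

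Other genes of the clock were counted for comparison. Of the 24 clock genes listed, 21 passed the minimum level. In the 24 hr fit, 6 of the 18 that are not Period genes had an unadjusted limma p under 0.05 in control and 9 in 6AN. Of all loci 5.12% and 4.73% did so. None of the 18 was called after adjustment. Their median log2 ratio was 0.20, against -0.04 for all loci, with 5 of 18 higher in 6AN at all time points (RORA, NFIL3, BHLHE40, CSNK1D and CSNK1E) and 3 lower (CLOCK, NPAS2 and BHLHE41), against 12.6% and 19.8% of all loci. BHLHE41, a repressor of BMAL1/CLOCK, had the largest difference among the clock genes, -2.01. Between the days, DBP and BHLHE41 rose with PER3 in control and BHLHE40 fell by limma's adjusted p, and in 6AN NFIL3 rose and TIMELESS fell. Of all loci 1.48% rose and 1.86% fell in control, and 16.1% were called in 6AN.

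Among 12 measured enzymes that modify PER proteins, the median log2 ratio was 0.02. Higher in 6AN at all time points were CSNK1D, CSNK1E, CSNK2A2 and the β-TrCP ligase FBXW11. CSNK2A2 stood out at 0.79. Lower at all time points were the phosphatase subunits PPP1CB, PPP1CC and PPP5C, PPP5C at -0.55. These counts are 4 and 3 of 12, beside 12.6% and 19.8% of all loci. Between the days in 6AN, CSNK2A1 and the ligase MDM2 rose and PPP1CA fell by limma's adjusted p, by 0.23, 0.47 and -0.25 on the log2 scale. In 6AN 16.1% of all loci were called between the days. In control none of the 12 was called.

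Genes of the glucocorticoid and cAMP/CREB pathways, which are known to act on PER1, differed in direction. Of 11 measured glucocorticoid response genes, the receptor NR3C1 included, 5 were higher in 6AN at all time points (TSC22D3, DUSP1, SGK1, MT2A and NR3C1) and 1 was lower (FKBP5), with a median of 0.33, against 12.6% higher and 19.8% lower of all loci. The highest were DUSP1 at 1.38, MT2A at 1.05 and TSC22D3 at 0.96. The lowest were ERRFI1 at -0.335, CEBPD at -0.302 and FKBP5 at -0.267. Of 10 measured cAMP/CREB and immediate early genes, 3 were higher at all time points (ATF3, EGR1 and NR4A3) and 2 lower (CREM and CREB1), with a median of 0.15, beside the same shares of all loci. Their ratios ran from -0.384 for JUNB to 1.06 for ATF3. A further list held 6 integrated stress response genes, and all 6 were higher at all time points. Their median was 1.20, led by TRIB3 at 2.0 and DDIT3 at 1.81. Their summed level was 497 to 838 FPKM in control and 1070 to 1520 in 6AN. Between the days in control, ERRFI1, PDK4 and CHAC1 rose by limma's adjusted p, beside 1.48% of all loci. In 6AN DUSP1, ATF4, DDIT3, TRIB3, ASNS and SESN2 rose and SGK1, MT2A, NR4A1 and CRTC2 fell, beside the 16.1% of loci called there. The part of these genes in the PER1 level was not tested.

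The libraries carried the markers of the line. Of 6 mesenchymal markers 5 were measured, with COL1A2 below the minimum at 0.033 and 0.016 FPKM, and their summed level was 1610 to 1890 FPKM in control and 968 to 1370 in 6AN, with VIM, FN1, COL1A1 and SPARC lower in 6AN at all time points. Between the days FN1 rose and COL1A1 fell in control, and in 6AN RUNX2 rose and VIM, COL1A1 and SPARC fell, by limma's adjusted p. Beside these, 1.48% of all loci rose and 1.86% fell in control, and 16.1% were called in 6AN. The 5 markers of other cell types (PTPRC, EPCAM, CDH1, ALB and PECAM1) summed to 1.11 to 2.24 FPKM in control and 1.10 to 2.30 in 6AN, and none was at 0 in every library. Relative depth, read from loci detected in few libraries, ran from 0.691 to 1.14 of the median library in control and from 0.797 to 1.20 in 6AN. The lowest was control CT04, where PER2 had its highest control value and no Period gene its lowest.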

How the data were processed

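RNA-seq was on rRNA-depleted total RNA of 24 libraries and ChIP-seq on 10 libraries. Per the labels, the authors used Bowtie, TopHat, Cufflinks, Bowtie2 and HOMER on hg38, with versions not given in the sources used here. The authors deposited FPKM values per locus, in 1 table per condition scaled on its own, so tests stayed within a table. Deposited signal values at shared sites are HOMER tags in 1000 bp scaled to 10000000, and the deposited totals gave tags back. Read depth of the RNA-seq libraries is not stated, and the precision of each value rests on 1 library per time point; the study's methods describe extraction in triplicate, and how the triplicates relate to the deposited libraries is not given in the sources used here. Rhythm and drift were tested with limma 3.58.1 in R 4.3.3 on log2(FPKM + 1) for loci with a mean of at least 0.7 FPKM, at an adjusted p of at most 0.05. RAIN was not used. The member ratios used a two-sided exact sign-flip permutation test. Scripts were tested on simulated data. Named were the members, the 5 loci most like each by mean Pearson r, and genes of the lists that were called between days, higher or lower at all time points, or among the 3 largest ratios. The lowest ratios of the glucocorticoid and cAMP/CREB lists were named as well. The members and lists were chosen with earlier results of these data known. Alternatives were another pseudocount, filter, scaling, block, trend or period, permutation of time labels, each time point left out, another signal pseudocount, input subtraction and a fold of 2. Promoter sequences came from RefSeq. Protein sequences and the sequence of the distal PER1 site were not used here. MIR6883 has the same interval as PER1 in the tables, so reads of the pair may be shared.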

Additional observations from a re-analysis of the deposited data

Results flagged for a closer look

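MIR6883, a microRNA gene listed with the same interval as PER1, was at 0 FPKM in all 12 control libraries and above 0 in 6 of 12 libraries with 6AN, up to 800.3 FPKM. It was picked out because its signal lies outside the comparisons and above the level in every control library. With 6AN it was at 800.3 FPKM at CT08, 240 at CT04, 296 at CT24, 343 at CT28, 197 at CT32 and 604 at CT40, and at 0 in the other 6 libraries. A 0 in an FPKM table can be a failed estimate, so no fold is given. FPKM divides by transcript length, so few reads can give a high value for a short transcript. The values are thus not set against those of PER1. The part of MIR6883 in the PER1 level was not tested.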

How the results depend on the processing

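The linear trend raised the count of 24 hr loci in control from 0 to 1, which was PER3 (amplitude 0.44, adjusted p = 0.0147 by limma). In the permutation test of the time labels PER1 in 6AN kept a share of variance of 0.467 but had p = 0.0627 in place of 0.0395. The rise of PER3 between days in control lost its call without a filter (0.24, adjusted p = 0.0635 by limma), with no clock hour block (0.24, adjusted p = 0.537) and with library medians centred (0.22, adjusted p = 0.0662). On leaving out each clock hour it was 0.22 to 0.27. The loci called between days in control numbered 259 with no filter and 101 to 216 on leaving out a clock hour, against 490, and in 6AN 991 to 1731, against 2368. Values that changed sign were uncalled: PER2 in control was -0.014 with medians centred and -0.0576 to 0.0495 on leaving out a clock hour, PER1 was -0.151 to 0.0419 in control and -0.229 to 0.00588 in 6AN, and PER3 in 6AN -0.0234 to 0.0913. A fold of 2 left 1 CLOCK site called of 3, PER1. With the input change subtracted, the PER3 site changed by 0.45 for CLOCK and -0.81 for BMAL1, and 2 of the 3 CLOCK sites stayed past 1.5-fold. The cause was not tested. All 3 member ratios stayed past the threshold, and PER1 stayed higher in 6AN at every time point, under all alternatives run for them. PER2 falls below a minimum of 5 FPKM and has no value there. Without pairing by time label the differences of the member ratios are by construction the same and all 3 pairs stayed past the threshold. At the PER2 site the H3K9ac change was -0.58 in the window of the control list in place of -0.71.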
